A study of Rattus norvegicus with 16 samples.

Results

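miR-146a and miR-146b were measured in rat hippocampus 24 h after traumatic brain injury (TBI) or control handling. They were taken as the array probes that the scanner files name rno-miR-146a or rno-miR-146b, which gave 2 of 350 miRNAs and 4 of 938 probes, 2 probes for each. RNA of whole hippocampus from 16 Sprague-Dawley rats (male, per the methods) was hybridised to Agilent Rat miRNA arrays, 1 array a rat. Injured rats had severe fluid percussion injury, in which a fluid pulse on the exposed dura deforms the brain, and received either no compound (TBI, 3 rats) or a compound named in the labels only as PMI (TBI+PMI, 3 rats), JM6 (TBI+JM6, 3 rats) or E33 (TBI+E33, 2 rats). Uninjured rats were sham-injured (Sham, 2 rats) or had no treatment at all (Naive, 3 rats). Doses, dosing times and ages, and whether any rats received a vehicle, are not given in the sources used here. The arrays sat on 2 slides that were scanned separately. Slide 1 held the TBI and Naive arrays and TBI+PMI replicates 1 and 2, and slide 2 held the TBI+JM6, TBI+E33 and Sham arrays and TBI+PMI replicate 3. TBI without compound was therefore never on a slide with Sham, and groups were compared only within a slide or with the slide as a term.

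The miR-146 miRNAs are small RNAs of the innate immune response. In human and mouse cells, Toll-like receptors and cytokine receptors activate the transcription factor NF-kB, which raises transcription of the miR-146a gene. The mature miRNA then lowers TRAF6 and IRAK1, adaptor and kinase of the same receptors, so that the pathway is damped by its own product. miR-146b carries the same seed, the bases that pair with targets, but comes from another gene whose control differs between cell types. In brain, miR-146a is known mostly from microglia, astrocytes and vessel cells, and in blood from lymphocytes and myeloid cells.

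The sequences show what the array can tell apart. The mature forms are given from RefSeq on GRCr8, with the seed (bases 2 to 8) in capitals.
rno-miR-146a-5p, chr10:28350053-28350074, minus strand: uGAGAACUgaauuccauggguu
rno-miR-146b-5p, chr1:255144874-255144897, plus strand: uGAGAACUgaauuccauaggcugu
Counted from the 5′ end of miR-146a, the shared 22 positions differed at 2, G18A and U21C, and miR-146b was longer at its 3′ end, with 24 bases against 22. Of 724 mature rat miRNAs in the RefSeq table, only these 2 had the seed GAGAACU. Both hairpins are shown because the mature form lies in the 5′ arm (in capitals) of each.
Mir146a hairpin, chr10:28349996-28350090, minus strand: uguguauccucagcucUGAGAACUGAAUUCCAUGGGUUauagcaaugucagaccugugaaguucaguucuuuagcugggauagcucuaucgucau
Mir146b hairpin, chr1:255144860-255144947, plus strand: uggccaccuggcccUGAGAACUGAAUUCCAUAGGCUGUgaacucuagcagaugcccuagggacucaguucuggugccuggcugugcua
In that annotation Mir146a lies within a long non-coding RNA gene (LOC134480673) on chromosome 10. Mir146b lies within the span of C1h10orf95 on chromosome 1, and 30.2 kb past the end of Nfkb2, which encodes an NF-kB subunit.

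Each probe is the reverse complement of the 3′ part of its miRNA. Capitals mark the probe bases opposite the positions at which the 2 miRNAs are unlike.
A_26_P00002583, miR-146a bases 3 to 22: aAccCatggaattcagttct
A_26_P00001390, miR-146a bases 4 to 22: aAccCatggaattcagttc
A_26_P00002469, miR-146b bases 5 to 24: ACaGccTatggaattcagtt
A_26_P00002601, miR-146b bases 4 to 24: ACaGccTatggaattcagttc
The probes for miR-146a had 2 bases that did not match miR-146b, and those for miR-146b had 4 that did not match miR-146a, the overhang included. All unlike bases lay near the 5′ end of a probe. Some cross-hybridisation between the members cannot be told apart from their own signal with these probes, and its part in the results was not tested.

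Values are given as log2 scaled signal: the background-subtracted intensity averaged over the spots of a probe, divided by the 75th percentile of that array and put on the log2 scale. A value of 0 is thus the level of that percentile. Each member probe had 10 spots an array. The miR-146a probes A_26_P00002583 and A_26_P00001390 had mean intensities of 170.6 to 442.1 and 58.2 to 173.2 over the 16 arrays, and the miR-146b probes A_26_P00002469 and A_26_P00002601 had 307.4 to 734.6 and 515.3 to 1193, with 0 saturated spots. A probe was called well above background on an array where the scanner software flagged more than 50% of its spots so. This held on 16 of 16 arrays for 3 of the 4 probes. A_26_P00001390 reached it on 14 arrays and missed it on TBI replicate 1 and Naive replicate 1. The median coefficient of variation between spots of a probe was 4.97% and 6.55% for the miR-146a probes and 4.74% and 3.52% for the miR-146b probes. After the mean of each slide was subtracted, the 2 probes of miR-146a followed each other with r = 0.97 over the 16 arrays and those of miR-146b with r = 0.98. A_26_P00002583 and A_26_P00002469 stood for the members in the fits, and levels of different probes are not set against each other.

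Of the 7000 spots on an array, 2858 to 4153 were well above background, and the 75th percentile lay between 1945 and 4042 intensity units. The neural origin of the tissue was checked by 8 neuron-enriched miRNAs, all of them tested, which do not tell the hippocampus from other brain regions. Their summed scaled signal on slide 1 was 25.2 to 33.7 on the 5 injured arrays, against 33.6 to 39.5 on the 3 Naive arrays, and on slide 2 it was 30.7 to 36.5 on injured arrays, against 29.3 and 33.9 on Sham arrays. On slide 1, 7 of the 8 had a lower mean in TBI than in Naive, with 0 called, and all 8 in TBI+PMI than in Naive, where miR-128 and miR-127 fell by 0.60 and 0.48 (adjusted p = 0.0457 each, limma; 7.91% of 177 miRNAs were called). In that comparison 0 miRNAs were called by limma without TBI+PMI replicate 1, TBI replicate 3, Naive replicate 1 or Naive replicate 3. The part of this shift in the slide 1 differences of miR-146a and miR-146b was not tested. Some arrays stood apart in miRNAs of other cells. The summed signal of 4 leukocyte miRNAs was 0.593 on TBI replicate 1 and 0.568 on TBI+PMI replicate 1, against 0.945 to 1.34 on the other 9 injured arrays and 0.567 to 0.744 on the 5 uninjured arrays. On both low arrays most of this sum was miR-150, the brightest of the 4 there (log2 -1.26 and -1.57). Their miR-142-3p (-2.89 and -2.63) lay above Naive replicates 1 and 3 (-3.27 and -3.03) and below Naive replicate 2 (-2.58). Naive replicate 2 had 4.36 for 4 vessel miRNAs, against 1.61 to 2.18 elsewhere. For 5 choroid plexus miRNAs the sum was 8.17 on TBI+PMI replicate 1, 5.99 on Sham replicate 1 and 2.84 on Naive replicate 2, against 0.704 to 1.44 on the rest. The sums of 2 red cell miRNAs (0.180 to 0.557 on injured arrays and 0.105 to 0.457 on uninjured arrays), 2 oligodendrocyte miRNAs (4.73 to 8.20 and 6.46 to 7.92) and 6 miRNAs of other tissues (0.120 to 0.201 and 0.151 to 0.267) overlapped between injured and uninjured rats. None of the red cell, vessel, oligodendrocyte, choroid plexus and other-tissue miRNAs was called by limma in any of the 7 comparisons.

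**Figure D1:**
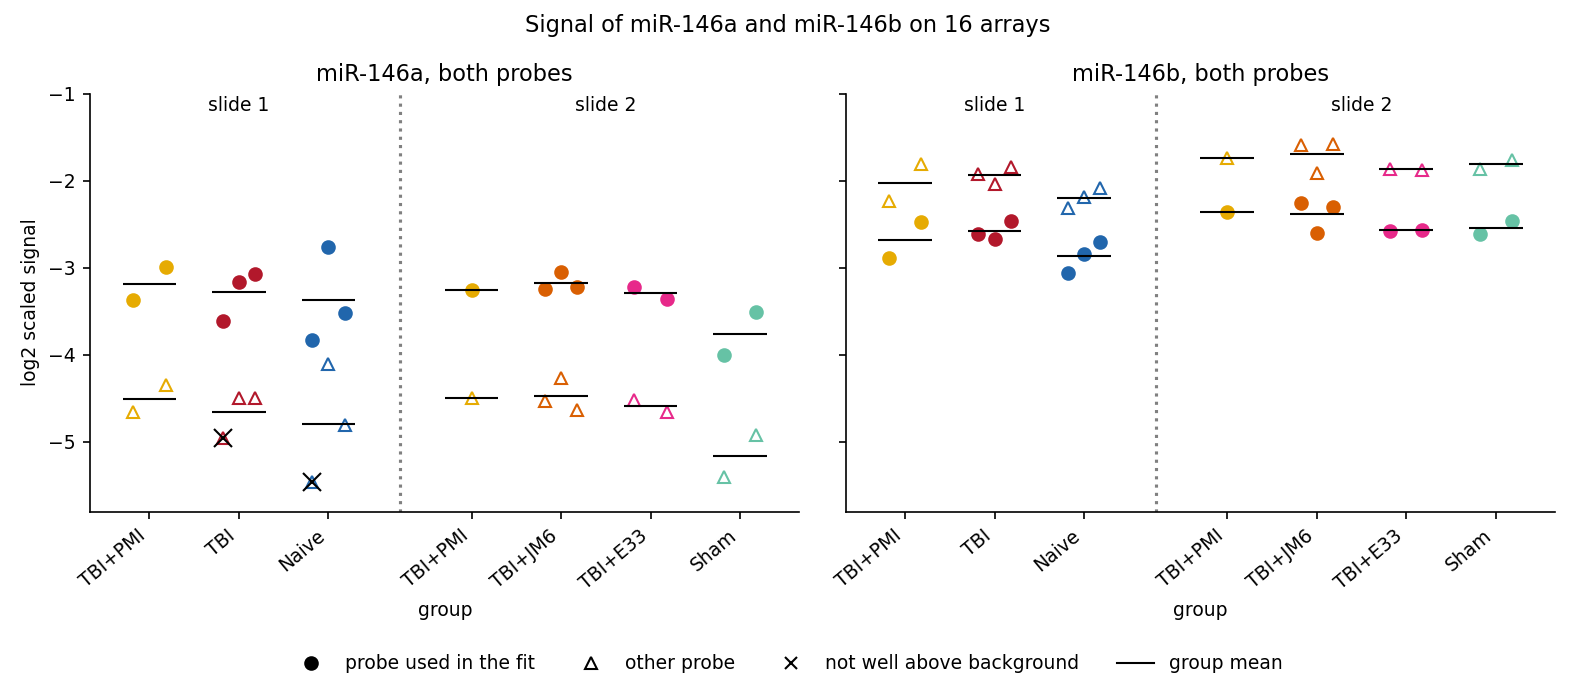
Log2 scaled signal (y axis) of both probes of miR-146a (left) and miR-146b (right) on each of the 16 arrays, by group within a slide (x axis). Filled circles are the probe used in the fits, open triangles the other probe, black lines group means, and crosses mark 2 arrays on which the probe was not well above background. On slide 2 all 6 injured arrays lie above both Sham arrays for miR-146a, and on slide 1 Naive replicate 2 is the highest miR-146a value.

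On slide 2, miR-146a was higher in every injured rat, all of which had received a compound, than in either Sham rat. Its signal was -3.24, -3.05 and -3.22 in TBI+JM6, -3.22 and -3.36 in TBI+E33 and -3.25 in the TBI+PMI rat of that slide, against -4.00 and -3.51 in Sham. The 6 injured rats spanned 0.30 log2 units and the 2 Sham rats 0.49, and the groups did not overlap. Among the 230 miRNAs tested, 13% were likewise higher on all 6 injured arrays of slide 2 than on both Sham arrays. The injured mean was -3.22 ± 0.10 (SD, n = 6) and the Sham mean -3.76 ± 0.35 (SD, n = 2), a difference of 0.53 (standard error 0.13), or 1.45-fold with a 95% interval of 1.18 to 1.77. The exact two-sided permutation test gave p = 0.0357, the smallest that 6 against 2 arrays allow. By limma within slide 2 the adjusted p was 0.0344 over the 230 miRNAs tested on both slides, of which 8.7% were called, and 0.0560 over the 246 that pass the filter for dim probes on slide 2 alone. The call thus rests on which dim miRNAs are tested beside it. Both of these limma fits were chosen after seeing the data, and they take rats given JM6, E33 or PMI as a single injured group. The other miR-146a probe, A_26_P00001390, gave 0.65 with the same exact p of 0.0357.

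The compounds taken singly had fewer arrays. TBI+JM6 exceeded Sham by 0.59 (standard error 0.15, 1.5-fold, 95% interval 1.16 to 1.94), with an adjusted p of 0.102 by limma, where 5.33% of 225 miRNAs were called. TBI+E33 exceeded Sham by 0.47 (standard error 0.17, 1.38-fold, 95% interval 1.03 to 1.85), with an adjusted p of 0.199 by limma, where 3.98% of 226 miRNAs were called. Neither passed the threshold of 0.05, and both comparisons share the same 2 Sham arrays. In both, the groups did not overlap for miR-146a, as was so, in the higher direction, for 16.9% of miRNAs with TBI+JM6 and 32.7% with TBI+E33. With 3 against 2 arrays an exact permutation test cannot go below 0.1, and with 2 against 2 not below 0.333. The size depended on the Sham rat: without Sham replicate 2 the difference was 0.83 for TBI+JM6 (adjusted p = 0.0274, limma) and 0.71 for TBI+E33 (adjusted p = 0.0544, limma), and without Sham replicate 1 it was 0.34 and 0.22. Sham replicate 1, the lower of the 2 for miR-146a, was also the Sham array with the high choroid plexus miRNAs, whose part in the difference was not tested.

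On slide 1, miR-146a did not separate injured from uninjured hippocampus. It was -3.61, -3.17 and -3.07 in TBI, against -3.83, -2.76 and -3.52 in Naive. The highest value of the slide was thus in an uninjured rat, Naive replicate 2, and the groups overlapped. The means were -3.28 ± 0.29 in TBI and -3.37 ± 0.55 in Naive (SD, n = 3 each), a difference of 0.08 with a standard error of 0.28, a 95% interval of -0.58 to 0.74 and an adjusted p of 0.858 by limma, where 0% of 169 miRNAs were called (36 had an unadjusted p under 0.05). The interval holds both no difference and the 0.53 seen on slide 2. The exact permutation p was 0.9, with 0.1 the smallest that 3 against 3 arrays allow. Among the 161 miRNAs well above background on all 16 arrays, the median SD of the 3 Naive arrays was 0.12, and 6 miRNAs (3.73%) had a larger SD there than miR-146a. The 2 Sham arrays of slide 2 were alike in this: their median SD was 0.07, and 5 miRNAs (3.11%) had a larger SD than miR-146a (0.35).

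The direction on slide 1 hung on single rats. TBI exceeded Naive by 0.39 without Naive replicate 2 and by 0.25 without TBI replicate 1, whereas the difference was -0.14 without Naive replicate 1 and -0.02 without TBI replicate 3. Naive replicate 2 was the array with the high vessel miRNAs, and its miR-143, a smooth muscle miRNA, was 1.44 against -0.42 and -0.19 in the other Naive rats. TBI replicate 1, the lowest injured value of miR-146a, was the TBI array with the low leukocyte sum. TBI replicate 1 also had the fewest probes well above background of the 16 arrays (293) and the most outlier spots (427). Naive replicate 1, the lowest miR-146a value of the slide, was next in probes well above background (296). What part these contents and the detection on an array had in the miR-146a values was not tested. In bulk tissue, fewer cells of a type and less RNA per cell cannot be told apart.

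miR-146b was the member that separated TBI from Naive on slide 1. Its signal was -2.61, -2.67 and -2.47 in TBI, against -3.06, -2.85 and -2.71 in Naive, so that every TBI rat lay above every Naive rat, with TBI replicate 2 and Naive replicate 3 almost touching. Groups did not overlap in this direction for 8.88% of the 169 miRNAs tested. The means were -2.58 ± 0.10 in TBI and -2.87 ± 0.18 in Naive (SD, n = 3 each), a difference of 0.29 (standard error 0.12), or 1.22-fold with a 95% interval of 1.01 to 1.48. The adjusted p was 0.225 by limma, and the exact permutation p of 0.1 was the smallest the design allows. The other probe, A_26_P00002601, gave 0.26 and also did not overlap. With the TBI+PMI arrays of slide 1 added to TBI, injured and Naive arrays overlapped (A_26_P00002469, difference 0.25, exact permutation p = 0.125). The study had picked miR-146b on these same arrays, by its own thresholds for fold and p. The separation of TBI from Naive is thus no independent evidence of a change. The methods' t-test, rerun on the scaling used here, gave miR-146b an unadjusted p of 0.0710. The paper also reports checking differential expression by individual TaqMan assays, which were not used here. The sign of TBI minus Naive held in each of the 24 other settings and arrays left out, with differences of 0.19 to 0.42, and none of them passed the threshold.

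On slide 2, where Sham was the control, miR-146b did not separate injured from Sham rats with either probe. It was -2.25, -2.60 and -2.30 in TBI+JM6, -2.58 and -2.56 in TBI+E33 and -2.37 in TBI+PMI replicate 3, against -2.62 and -2.46 in Sham. Injured and Sham arrays overlapped, and their means were -2.44 ± 0.15 (SD, n = 6) and -2.54 ± 0.11 (SD, n = 2), which differed by 0.10 with a 95% interval of -0.17 to 0.36 (exact permutation p = 0.429). TBI+JM6 minus Sham was 0.16 (standard error 0.12, adjusted p = 0.625, limma) and TBI+E33 minus Sham was -0.03 (standard error 0.13, adjusted p = 0.901, limma). The second probe gave 0.12 and -0.06. With it both TBI+E33 arrays (-1.870 and -1.873) lay below both Sham arrays (-1.865 and -1.760), by a narrow margin. The exact permutation p was 0.333, the smallest that 2 against 2 arrays allow. The share of all miRNAs that were lower in this way was not counted.

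**Figure D2:**
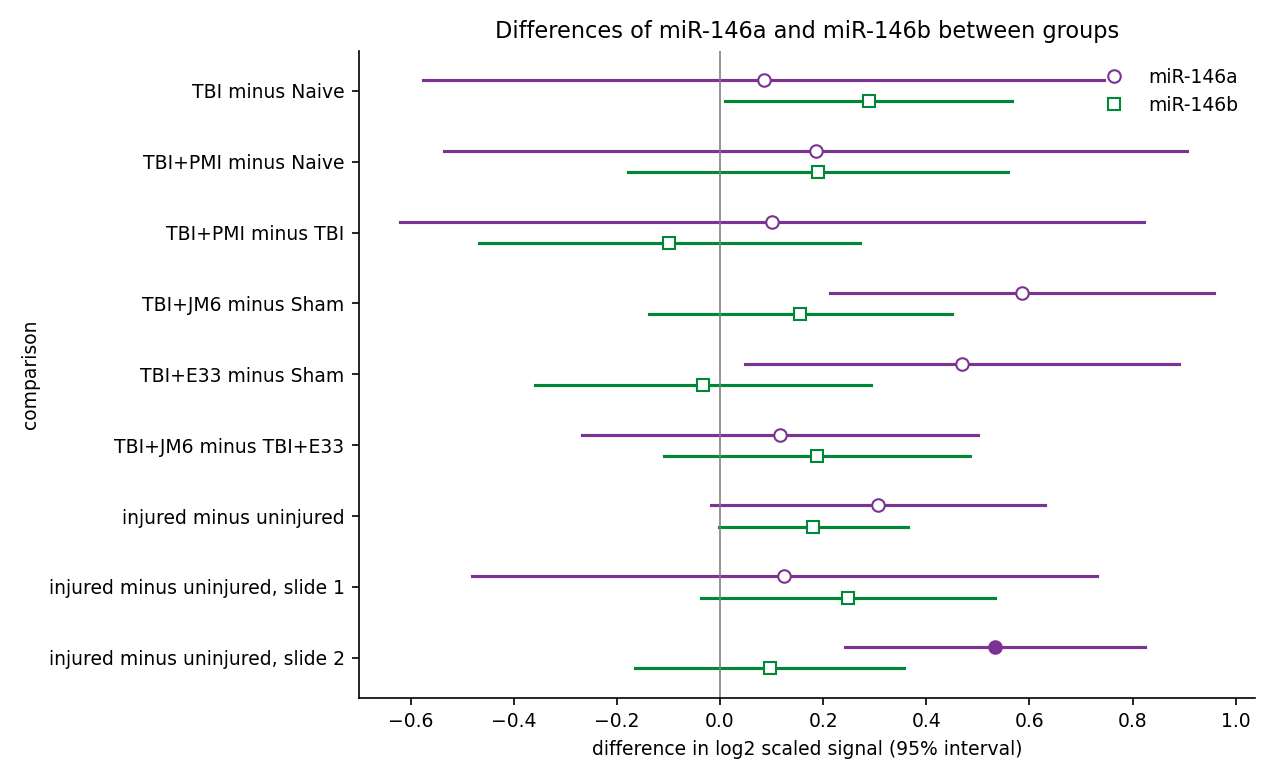
Difference in log2 scaled signal (x axis, first-named group minus second) of miR-146a (purple circles) and miR-146b (green squares) with 95% intervals, for 7 comparisons and the injured contrast within each slide (y axis). A filled symbol marks an adjusted p under 0.05 by limma, which only miR-146a within slide 2 has, over the 230 miRNAs tested on both slides. The fits of the injured contrast within a slide were chosen after seeing the data. The miR-146a intervals on slide 1 span 0 widely, and on slide 2 those against Sham lie above 0.

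Pooled over both slides, with the slide as a term, neither member passed the threshold. The injured minus uninjured difference was 0.31 (standard error 0.15, adjusted p = 0.300, limma; exact permutation p within slides = 0.0874) for miR-146a and 0.18 (standard error 0.09, adjusted p = 0.298, limma; exact permutation p within slides = 0.0682) for miR-146b, where 6.52% of 230 miRNAs were called. Within slides the values were 0.12 on slide 1 and 0.53 on slide 2 for miR-146a, and 0.25 and 0.10 for miR-146b. The other miR-146a probe, A_26_P00001390, gave 0.40 over both slides, with an exact permutation p within slides of 0.0466. Its adjusted p was 0.283 by limma with each probe fitted. The other miR-146b probe, A_26_P00002601, gave 0.15 (exact permutation p within slides = 0.0957). A test of the difference between slides gave 0.41 (standard error 0.30, adjusted p = 0.450, limma) for miR-146a and -0.15 (standard error 0.17, adjusted p = 0.663, limma) for miR-146b. Slide, kind of control (Naive or Sham) and compound cannot be told apart here: all 6 injured rats on slide 2 had received a compound, against 2 of the 5 on slide 1. Naive replicate 2 weighed on the pooled miR-146a value: without it the difference was 0.48 and the adjusted p 0.0119 by limma. With the signals of both probes summed it was 0.43 and 0.0483.

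Whether the 2 members changed unequally was tested on the difference between them within each array. On slide 2 the miR-146b change minus the miR-146a change was -0.44 for injured against Sham rats (exact permutation p = 0.0714), with -0.43 for TBI+JM6 (p = 0.2, exact) and -0.50 for TBI+E33 (p = 0.333, exact). On slide 1 it was 0.20 for TBI against Naive (exact permutation p = 0.7), and -0.09 without Naive replicate 2. Over both slides it was -0.13 (exact permutation p within slides = 0.476). Of these 9 tests, the 6 between single groups could not pass 0.05 whatever the values, with 0.1 the smallest p for 5 of them and 0.333 for TBI+E33 against Sham. The other 3, of injured against uninjured rats, did not pass it on all arrays, and a difference between the members was neither shown nor excluded. Without Naive replicate 2 the value over both slides was -0.31 and its exact permutation p within slides 0.0272.

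The compounds were compared with each other and with injury alone only where they shared a slide. TBI+PMI replicates 1 and 2 had -3.37 and -2.99 for miR-146a and -2.89 and -2.47 for miR-146b, the second rat being the higher for both members. Against the TBI values above, TBI+PMI differed by 0.10 (95% interval -0.62 to 0.82) for miR-146a and by -0.10 (95% interval -0.47 to 0.27) for miR-146b, each with an adjusted p of 0.969 by limma, where 0% of 176 miRNAs were called (12 had an unadjusted p under 0.05). Against Naive the differences were 0.19 (95% interval -0.54 to 0.91, adjusted p = 0.780, limma) and 0.19 (95% interval -0.18 to 0.56, adjusted p = 0.511, limma), where 7.91% of 177 miRNAs were called. TBI+PMI replicate 1 had a low leukocyte sum and many choroid plexus miRNAs. Its miR-150 was -1.57, the lowest of all arrays. Its miR-223 was -4.06, below TBI replicates 2 and 3 but above every Naive array. Its miR-142-3p was -2.63, against -3.27, -2.58 and -3.03 in Naive. Without this rat TBI+PMI minus Naive was 0.38 for miR-146a and 0.40 for miR-146b, and without TBI+PMI replicate 2 it was -0.01 and -0.02. On slide 2, TBI+JM6 minus TBI+E33 was 0.12 (95% interval -0.27 to 0.50) for miR-146a and 0.19 (95% interval -0.11 to 0.49) for miR-146b, both at an adjusted p of 0.949 by limma, where 0% of 230 miRNAs were called (7 had an unadjusted p under 0.05). The 0.53 by which miR-146a differed between injured and Sham rats on slide 2 lay within both TBI+PMI intervals of miR-146a and just above the interval for TBI+JM6 minus TBI+E33. The chemistry of the compounds was not used here.

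In order of mean signal, miR-146a on slide 1 ran TBI+PMI (-3.18 ± 0.27, n = 2), TBI (-3.28) and Naive (-3.37), with neighbours closer than the SD of any of the 3 groups. On slide 2 it ran TBI+JM6 (-3.17 ± 0.10, n = 3), TBI+PMI (-3.25, 1 rat), TBI+E33 (-3.29 ± 0.10, n = 2) and, lower by more than the SD of either group, Sham (-3.76). For miR-146b the order on slide 1 was TBI (-2.58), TBI+PMI (-2.68 ± 0.30, n = 2) and Naive (-2.87), and on slide 2 TBI+PMI (-2.37, 1 rat), TBI+JM6 (-2.38 ± 0.19, n = 3), Sham (-2.54) and TBI+E33 (-2.57 ± 0.01, n = 2). Each neighbouring pair of miR-146b means lay closer than the larger SD of the pair. On slide 2 Sham was thus the lowest group for miR-146a and not for miR-146b.

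Likeness to each member was read over the 16 arrays. After the mean of each slide was subtracted, the miRNAs most like miR-146a among 160 were miR-27a (Pearson r = 0.83), miR-500 (0.79), miR-142-3p (0.78), miR-20a (0.64) and miR-17-5p (0.64). miR-142-3p is largely confined to blood-forming cells, miR-27a belongs to a cluster with miR-23a and miR-24, and miR-20a and miR-17-5p come from the miR-17-92 cluster. Those most like miR-146b were miR-22* (0.85), miR-24 (0.81), miR-93 (0.80), miR-106b (0.77) and miR-15b (0.76), of which miR-93 and miR-106b share a cluster in an intron of Mcm7. The top 5 lists had no miRNA in common, which was not tested as a difference: miR-27a and miR-24 belong to 1 cluster, and miR-142-3p and miR-21 had r = 0.56 and 0.55 with miR-146b, against 0.78 and 0.62 with miR-146a. The members themselves had r = 0.40, which put miR-146b at rank 21 for miR-146a and miR-146a at rank 48 for miR-146b. These correlations are descriptions: the points share a scaling for each array, and the injured and uninjured rats both enter. Spearman's rho was 0.82 for miR-146a with miR-27a, 0.76 with miR-142-3p, and 0.79 for miR-146b with miR-22*. Without the 2 arrays farthest from the median of the other miRNA, r with miR-146a was 0.76 for miR-27a, 0.61 for miR-500 and 0.62 for miR-142-3p. For miR-20a and miR-17-5p it was 0.57 and 0.38. With miR-146b, r was then 0.87 for miR-22*, 0.74 for miR-24, 0.67 for miR-93, 0.58 for miR-106b and 0.57 for miR-15b. Between the members it dropped to 0.15 without the 2 arrays farthest in miR-146b and to 0.0023 without those farthest in miR-146a, so that their r of 0.40 rests on those arrays. Within slides r was 0.70 on slide 1 and 0.89 on slide 2 for miR-146a with miR-142-3p, and between the members 0.44 and 0.34. For miR-146b it was 0.86 and 0.89 with miR-22*, but 0.88 and 0.53 with miR-106b and 0.90 and 0.43 with miR-15b.

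**Figure D3:**
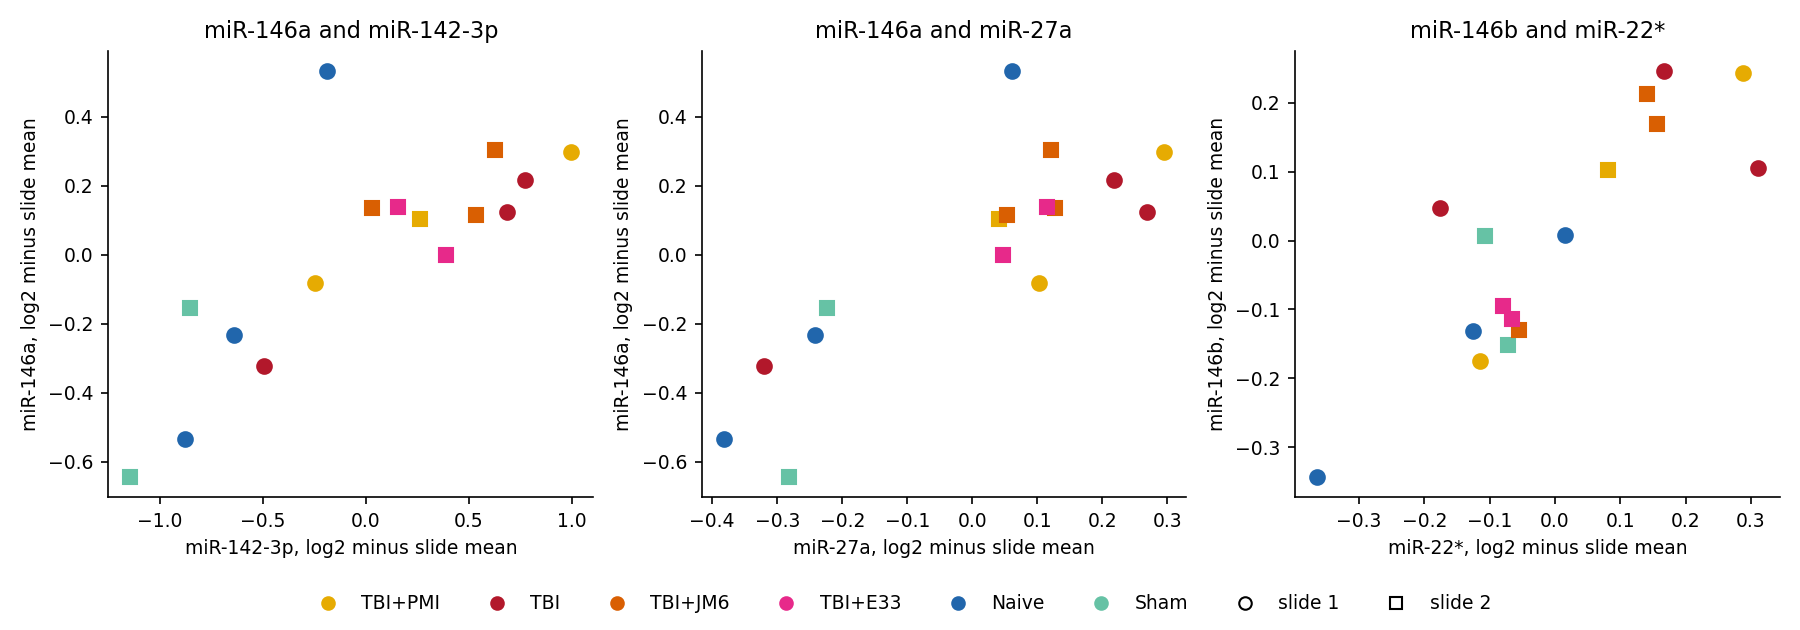
Each point is 1 array, with log2 scaled signal minus the mean of its slide on both axes, for miR-146a against miR-142-3p (left), miR-146a against miR-27a (middle) and miR-146b against miR-22* (right). Colours give the group, circles slide 1 and squares slide 2. The point at the top of the left and middle panels is Naive replicate 2, which has more miR-146a than other arrays of its miR-142-3p level, while Sham replicate 1 lies at the lower left. Sham replicate 2 (-0.15) lies above Naive replicates 1 and 3 and TBI replicate 1 for miR-146a.

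The leukocyte miRNAs that moved beside miR-146a were miR-223, abundant in neutrophils, and miR-142-3p. miR-223 was -1.34, -1.13 and -2.05 in TBI+JM6 and -1.98 and -1.32 in TBI+E33, against -5.38 and -4.92 in Sham. It rose by 3.64 with TBI+JM6 (adjusted p = 0.00240, limma) and 3.50 with TBI+E33 (adjusted p = 0.00690, limma). miR-142-3p rose by 1.39 and 1.27 (adjusted p = 0.0154 and 0.0400, limma). All 4 leukocyte miRNAs were tested there, and 2 were called higher and 0 lower in each comparison, where 5.33% (TBI+JM6) and 3.98% (TBI+E33) of all miRNAs tested were called. The list had a median difference of 1.16 with TBI+JM6 and 1.04 with TBI+E33, against 0.02 and 0.04 over all miRNAs tested. miR-142-5p was at the floor in both Sham rats, and miR-150, a lymphocyte miRNA, differed by 0.07 and 0.22. On slide 1, miR-223 was -5.07, -2.17 and -2.16 in TBI, against -5.96, -4.19 and -5.75 in Naive, with the low TBI value on the same array as the low miR-146a value and the high Naive value on the same array as the high miR-146a value. It was not well above background on TBI replicate 1 or Naive replicate 1 and was not tested in TBI minus Naive. None of the leukocyte miRNAs was called on slide 1, where 2 of the 4 were tested in TBI minus Naive and 3 in TBI+PMI minus Naive. miR-142-3p differed by 0.89 (adjusted p = 0.218, limma) in TBI and 0.94 (adjusted p = 0.227, limma) in TBI+PMI against Naive. miR-150 had the other sign, with -0.20 (adjusted p = 0.228, limma) and -0.37 (adjusted p = 0.0877, limma). The part of leukocyte RNA in the miR-146a signal was not tested.

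Other miRNAs tied to NF-kB and innate immune signalling were read from a list of 11, of which 10 were on the array and 8 passed the filter in each comparison (miR-155 was not analysed here, and miR-147 and miR-187 were too dim). miR-21, induced in reactive astrocytes and macrophages, was the only one called. Its signal was 1.95, 1.87 and 1.86 in TBI+JM6 and 1.76 and 1.91 in TBI+E33, against 0.44 and 0.55 in Sham, and it rose by 1.40 (adjusted p = 3.72e-04, limma) and 1.35 (adjusted p = 0.00112, limma). In TBI it was 0.50, 1.85 and 1.73, against -0.05, 0.11 and -0.10 in Naive, a difference of 1.37 (standard error 0.34, adjusted p = 0.130, limma). TBI replicate 1 was again the low TBI array. miR-125b-5p, miR-9* and miR-9, the brightest of the list and abundant in neural cells, differed by -0.04, -0.02 and 0.05 between TBI+JM6 and Sham, and let-7i, which targets Toll-like receptor 4 in human cells, by 0.03. miR-132, induced by neuronal activity, differed by 0.51 (adjusted p = 0.201, limma). Over the list the median difference in the pooled injured contrast was -0.01, with 4 of 8 means higher and 4 lower, against a median of -0.05 over all 230 miRNAs tested.

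**Figure D4:**
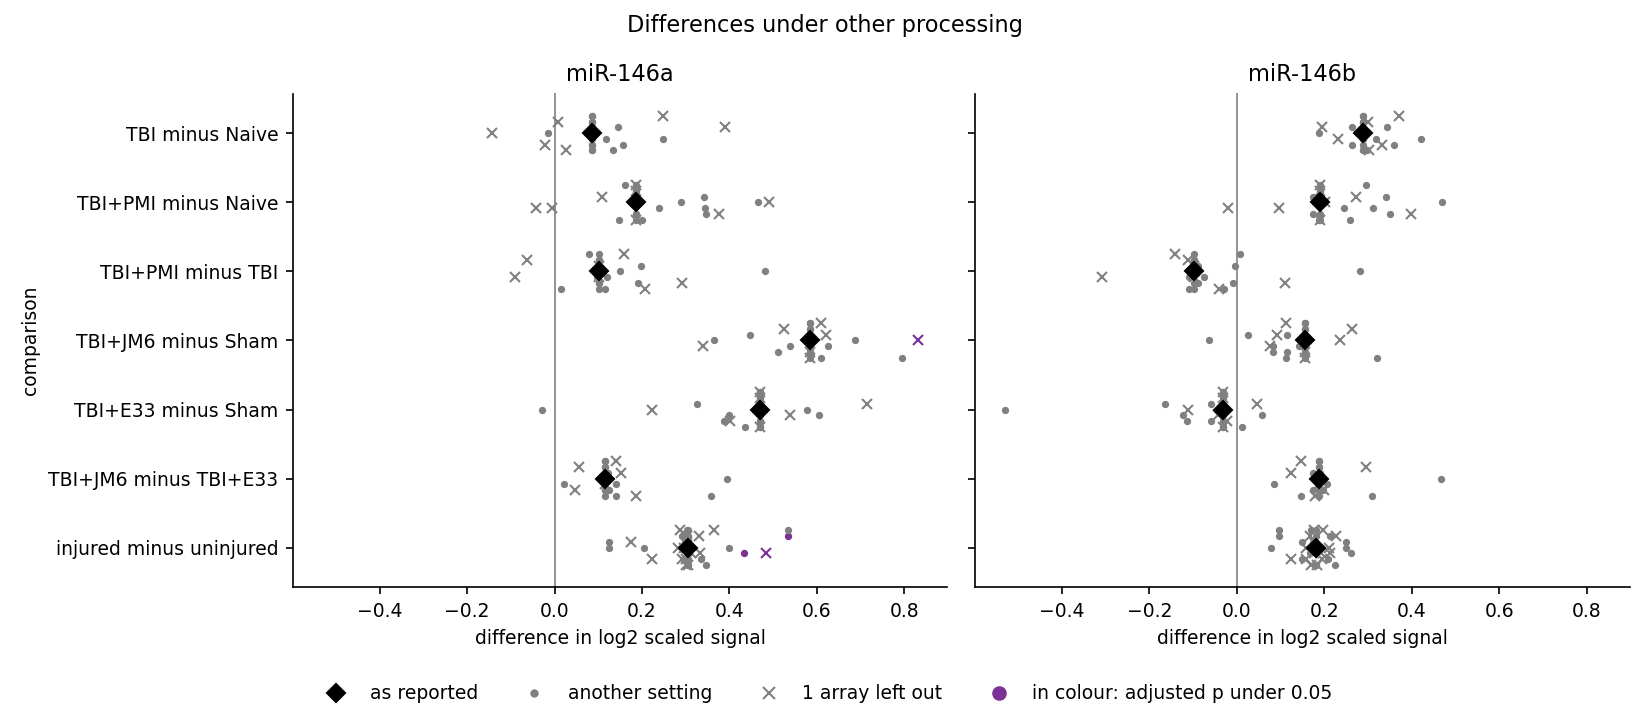
Difference in log2 scaled signal (x axis) of miR-146a (left) and miR-146b (right) in each of 7 comparisons (y axis), as reported (black diamonds), under other processing (dots) and with 1 array left out (crosses). Coloured symbols mark an adjusted p under 0.05 by limma, which occurs for miR-146a in TBI+JM6 minus Sham and in the injured contrast and nowhere for miR-146b. miR-146a lies on both sides of 0 for TBI minus Naive, and above 0 for TBI+JM6 minus Sham throughout.

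The scaling of the arrays moved the members together with all miRNAs. Without scaling, the TBI+E33 minus Sham difference was -0.44 for the median of all tested miRNAs and -0.03 for miR-146a, against 0.04 and 0.47 with scaling, so that miR-146a stood 0.42 above the median, against 0.43 with scaling. For TBI+JM6 minus Sham miR-146a stood 0.52 to 0.59 above the median under the 7 scalings and summaries compared, and for TBI minus Naive 0.12 to 0.15 above it. miR-146b stood 0.29 to 0.34 above the median for TBI minus Naive, and 0.04 to 0.13 above it for TBI+JM6 minus Sham.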

How the data were processed

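Per the file headers, the authors read the arrays with Agilent Feature Extraction 9.5.3.1, and the deposited scanner files hold a background-subtracted intensity per spot, not scaled between arrays. The authors normalized in GeneSpring. Their deposited processed intensity table equals the total signal of a probe times 1 constant per array (within 2% for 97.4% of values of at least 1), and what the constant was taken from is not given in the sources used here.

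Outlier spots were dropped and the remaining spots of a probe averaged. The scaling divisor of an array was the 75th percentile among 284 probes that cleared background on each of the 16 arrays, and log2 values had a floor of -6.74. One probe stood for a miRNA (that in the supplementary tables of the study, otherwise the brightest), and the miRNA was tested where this probe cleared background throughout 1 or more of the groups compared. Differences were fitted by limma 3.58.1 (lmFit, eBayes; R 4.3.3), with p-values adjusted by Benjamini-Hochberg across the miRNAs tested and a threshold of 0.05, and single values were compared by two-sided exact permutation tests. TBI minus Naive used its 6 arrays, the other comparisons all groups with at least 2 arrays on the slide, and the injured contrast used every array plus a slide term. The limma step was tested on simulated data. The labels call rats of a group separate samples, and the series description states 3 for each group, while 2 Sham and 2 TBI+E33 arrays were analysed here. The number of arrays limits the precision.

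Named were every member probe, the 8 lists of miRNAs as counts or sums, with members called or among the 4 brightest where a list is described by member, and the 5 miRNAs most like each member. miR-132, and miR-223 and miR-143 on single arrays, were named after their values were seen. The members and lists were chosen with earlier results of these data known. The alternatives comprised normexp (offset 50), other scalings, the processed table of the authors, no floor, no filter, a stricter one, other probe summaries, other arrays in the fit, a replicate block, an intensity trend, the methods' t-test and each array left out. Fits within a slide and a crossed pairing were chosen after seeing the data. Python 3.11.15 with scipy 1.17.1 and matplotlib 3.10.9 was used.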

Additional observations from a re-analysis of the deposited data

How the results depend on the processing

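With 2 or 3 arrays a group, small differences of miR-146a and miR-146b turned with the processing. miR-146b kept its sign in TBI minus Naive, TBI+JM6 minus TBI+E33 and the injured contrast, and miR-146a in TBI+JM6 minus Sham, TBI+JM6 minus TBI+E33 and the injured contrast, under each setting tried. Without scaling, miR-146a turned to -0.016 (TBI minus Naive) and -0.029 (TBI+E33 minus Sham), and miR-146b to 0.28 (TBI+PMI minus TBI) and -0.064 (TBI+JM6 minus Sham). miR-146b in TBI+E33 minus Sham was 0.012 with normexp and 0.056 with summed signals, and in TBI+PMI minus TBI 0.0069 on all 16 arrays without the slide. A pair of settings brought miR-146a past the threshold in the injured contrast, summed signals (0.43) and slide 2 alone (0.53). Slide 2 alone did so over the 230 miRNAs tested on both slides, but not with the filter of that slide. Leaving out Naive replicate 2 (0.48) also brought it past the threshold. With 1 array left out, miR-146a ranged from -0.14 to 0.39 (TBI minus Naive), -0.043 to 0.49 (TBI+PMI minus Naive), -0.090 to 0.29 (TBI+PMI minus TBI), 0.34 to 0.83 (TBI+JM6 minus Sham) and 0.18 to 0.48 (injured contrast). miR-146b ranged from -0.019 to 0.40 (TBI+PMI minus Naive), -0.31 to 0.11 (TBI+PMI minus TBI) and -0.11 to 0.047 (TBI+E33 minus Sham). The miR-146b change minus the miR-146a change was -0.049 with normexp in TBI+JM6 minus TBI+E33 and -0.033 with summed signals in TBI+PMI minus Naive. With 1 array left out it ranged from -0.089 to 0.36 (TBI minus Naive), -0.29 to 0.16 (TBI+PMI minus Naive), -0.027 to 0.24 (TBI+JM6 minus TBI+E33) and -0.31 to 0.00023 (injured contrast). The cause was not tested.

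Counts of miRNAs called moved more. For TBI minus Naive, 0 became 1 with normexp, 1 without scaling, 4 with the table of the authors, 5 with summed signals, 4 on all 16 arrays with a slide term, 23 by the methods' t-test (fold over 1.2, unadjusted) and 0 to 8 with 1 array left out (8 without TBI replicate 1). For TBI+PMI minus Naive, 14 became 0 with normexp, a percentile over all probes, quantile normalization or summed signals, 1 without the filter, 7 without scaling, 8 with the table of the authors, 34 and 30 on all 16 arrays with and without a slide term, and 0 to 13 with 1 array left out. For TBI+PMI minus TBI, 0 became 3 without scaling and 0 to 3 with 1 array left out. For TBI+JM6 minus Sham, 12 became 2 with normexp, 6 with the other percentile, quantile normalization or no filter, 1 without scaling, 22 with each probe fitted, 0 on all 16 arrays with or without a slide term, and 4 to 15 with 1 array left out. For TBI+E33 minus Sham, 9 became 1 with normexp, 2 without scaling, 17 without a floor, 18 with summed signals, 14 with each probe fitted, 3 and 0 on all 16 arrays with and without a slide term, 5 with an intensity trend, and 2 to 16 with 1 array left out. For TBI+JM6 minus TBI+E33, 0 became 1 without the filter and 0 to 2 with 1 array left out. For the injured contrast, 15 became 7 with normexp, 3 without scaling, 7 with the stricter filter, 26 with each probe fitted, 1 on slide 1 alone, 9 there with its own filter, and 10 to 17 with 1 array left out.

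Replicate numbers were not taken to pair the rats: same-numbered arrays correlated at -0.27, -0.15 and 0.08 for TBI and Naive and at -0.46 and -0.50 for TBI+PMI and Naive, but at 0.34 and 0.29 for TBI+PMI and TBI, which share only 2 numbers on slide 1. On slide 2 they correlated at -0.06 and -0.01 for TBI+JM6 and Sham and at -0.20 and 0.03 for TBI+JM6 and TBI+E33. A replicate block moved the counts to 7 for TBI+JM6 minus Sham and 4 for TBI+E33 minus Sham, and changed no call of miR-146a or miR-146b. TBI+E33 and Sham correlated at -0.19, and a block with the Sham numbers crossed gave 0 calls.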
